A study of Rattus norvegicus with 20 samples.

Results

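The respiratory chain and ATP synthase of mitochondria were examined in the lungs of rats that had inhaled silica dust. Genes were chosen by name: rows of the array's gene table whose symbol begins like that of a subunit of respiratory complex I (Nduf), II (Sdh), III (Uqcr, Cyc1), IV (Cox4 to Cox8) or V (Atp5), together with Cycs, which codes for cytochrome c. Of 21792 rows, 69 had such a symbol, and 64 were kept because their signal exceeded the array's background (detection p under 0.01) on at least 8 of 20 arrays. Of the 64 members, 29 belonged to complex I, 4 to complex II, 5 to complex III, 10 to complex IV and 11 to complex V. Cycs stood alone, and 4 rows that share a name stem were counted apart from the complexes. They are Ndufaf1 and Dmac2, known as assembly factors, Dmac2l (ATP5S in the gene table) and Emc8, a protein of the endoplasmic reticulum.

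The exposed group consisted of 8 male CDF Fisher 344 rats (identifiers 81 to 88), 3 months old, which had inhaled crystalline silica at 15 mg/m3 for 6 h per day over 5 days and were killed 16 h after the last exposure. The controls were 12 rats of the same strain, sex and age that had breathed air under the same schedule. Their identifiers form 3 runs of 4 (89 to 92, 105 to 108 and 137 to 140), and the labels do not say what the runs stand for. Total lung RNA of each rat was measured on 1 Illumina array, so each rat is 1 replicate, and the whole lung is a mixture of cell types. From each, 375 ng of RNA was used; no label says whether lungs were freed of blood or large vessels. Markers of both alveolar epithelial cell types were detected: 10 of 10 type 2 and 7 of 7 type 1 genes passed the detection filter.

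Electrons from NADH enter the chain at complex I and those from succinate at complex II, pass through complex III and cytochrome c to complex IV, which reduces oxygen, and the proton gradient built on the way drives ATP synthesis by complex V. All subunits considered here are coded in the nucleus, whereas a few core subunits are coded by mitochondrial DNA, which was not analysed here. Some subunits of complex IV exist in a form found in most tissues and a form of heart and skeletal muscle: Cox6a1 and Cox8a are the common forms, Cox6a2 and Cox8b the muscle forms. In the lung, alveolar type 2 cells, which make surfactant, are rich in mitochondria.

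Upstream sequences are shown for a pair of widely used subunits that rose, Cox5b and Ndufs8, and for the muscle forms Cox8b and Cox6a2, since the results below turn on these genes. Each is the 250 bases before the RefSeq gene start, 5′ to 3′ on the gene's strand, on assembly GRCr8. Cox5b lies on the plus strand (chr9:46417587-46417836), and Ndufs8 (chr1:210573699-210573948), Cox8b (chr1:205408274-205408523) and Cox6a2 (chr1:192219717-192219966) lie on the minus strand. Capitals mark letters that match CCGGAAG (the core recognised by ETS-family factors), CCAAT or, in Cox6a2 only, the MEF2 consensus, each on either strand. The window of Cox5a, which also rose, held none of these matches and is not printed. For Cyc1, the other member that rose, no window was available.
Cox5b: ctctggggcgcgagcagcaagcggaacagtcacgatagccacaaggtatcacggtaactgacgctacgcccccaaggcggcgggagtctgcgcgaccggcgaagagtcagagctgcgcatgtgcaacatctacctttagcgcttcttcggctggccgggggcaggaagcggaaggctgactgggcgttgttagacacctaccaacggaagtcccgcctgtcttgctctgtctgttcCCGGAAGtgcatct
Ndufs8: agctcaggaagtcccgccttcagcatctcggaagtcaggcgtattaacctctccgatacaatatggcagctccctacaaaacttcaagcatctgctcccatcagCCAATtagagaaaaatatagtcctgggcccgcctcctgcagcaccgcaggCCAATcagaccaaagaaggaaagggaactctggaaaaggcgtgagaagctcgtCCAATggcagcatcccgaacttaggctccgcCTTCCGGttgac
Cox8b: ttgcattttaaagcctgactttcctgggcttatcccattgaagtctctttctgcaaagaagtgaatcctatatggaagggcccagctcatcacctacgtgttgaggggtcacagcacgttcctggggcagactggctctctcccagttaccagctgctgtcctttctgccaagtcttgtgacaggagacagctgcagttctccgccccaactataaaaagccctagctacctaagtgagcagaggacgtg
Cox6a2: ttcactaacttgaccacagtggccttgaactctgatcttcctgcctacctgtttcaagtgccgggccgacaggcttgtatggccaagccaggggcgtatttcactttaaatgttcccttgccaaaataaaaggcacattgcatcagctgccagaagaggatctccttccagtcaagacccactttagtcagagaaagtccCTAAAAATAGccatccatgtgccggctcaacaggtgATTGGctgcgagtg

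Of the 60 subunit members, 53 had an entry in the RefSeq table of gene starts. The consensus site of the transcription factor NRF1 occurred upstream of 11 of these 53 (20.8%), against 3.75% of all 33469 sequences of the same length. The 33469 cover all gene starts listed, whether or not the gene was detected here, whereas the members were all detected. The part of this unlike choice in the shares was not tested. CCGGAAG was found in 15 of the 53 (28.3%), against 7.27% of all. The shares of members and of all sequences were closer for CCAAT (30.2% and 34.0%) and for the GC box GGGCGG (34.0% and 30.5%), where both strands were searched and matches of different motifs may overlap. The MEF2 consensus was in 1 of the 53, Cox6a2 (1.89%), against 2.96% of all. Such letters are a description of the windows and do not show that a factor binds there.

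Between silica and air lungs most members differed little. At an adjusted p under 0.05 (limma, Benjamini-Hochberg over all 10488 genes tested), 4 members rose, against 11.7% of all genes tested, and 1 fell, against 12.7% of all. That is 5 of 64 members (7.81%) beside 24.5% of all genes in either direction. The 4 that rose were Ndufs8, Cyc1, Cox5a and Cox5b, and the 1 that fell was Cox8b. In whole lung RNA, fewer cells of a type and less RNA per cell cannot be told apart in these or any of the following differences. With arrays scaled to a common median in place of quantile normalization, Cox5a alone of the 4 passed, where 1236 of all 10488 genes rose and 1109 fell. In the authors' deposited log2 values 7 members rose and 2 fell, beside 1242 and 1312 of all 10488 genes. Without adjustment, 13 of the 64 members had a p under 0.05, beside 3816 of all 10488 genes tested. The log2 fold changes were positive in 32 members and negative in 32, with a median of −0.0007, beside a median of −0.02 over all genes tested.

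The size of a change that these arrays leave possible was narrow for most members. The 95% confidence interval of the fold change lay within 1.2-fold either way in 58 of 64 members (90.6%), and in 54.3% of all genes tested. Members also varied less between control rats than genes in general: the median SD of log2 intensity over the 12 air rats was 0.10 for members and 0.15 for all genes. Members were brighter as well, with a mean log2 intensity of 10.82 in air rats beside 8.20 for all genes tested. The median bead error was 2.57% for members and 3.29% for all genes. The part of brightness in the narrow intervals and small SD was not tested. In no member did the 8 silica values all lie above or all below the 12 air values, which was the case for 2.57% of all genes tested (1.83% with silica above air and 0.744% below). In the plot of all members by complex, the intervals of most of the 64 cross 0 or lie close to it.

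**Figure D1:**
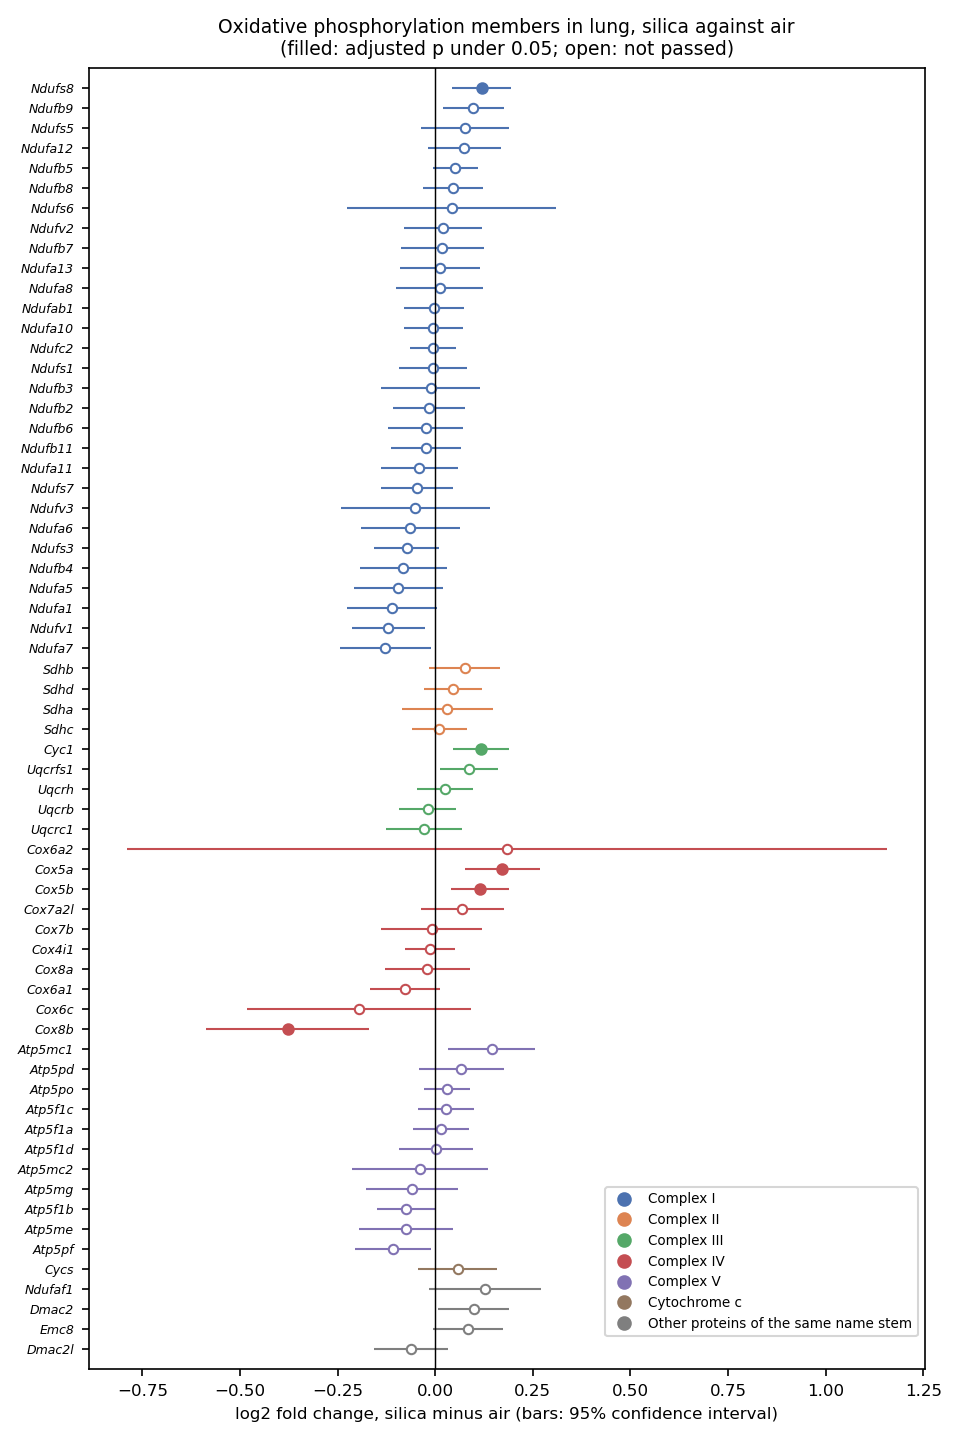
Log2 fold change of each of the 64 members, silica minus air (horizontal axis), with its 95% confidence interval, grouped by complex; filled points passed an adjusted p under 0.05. The 4 filled points to the right are Ndufs8, Cyc1, Cox5a and Cox5b, and the 1 to the left is Cox8b; Cox6a2 has the widest interval, from −0.79 to 1.16.

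In complex I, which takes electrons from NADH, 1 of 29 members rose and none fell, and 4 had an unadjusted p under 0.05. Here and for the other complexes, the shares over all genes tested were 11.7% rising and 12.7% falling. Without adjustment, 3816 of all 10488 genes had a p under 0.05. The median log2 fold change was −0.01. The member that rose was Ndufs8 (ILMN_1374757), a core subunit that carries iron-sulfur clusters. Its log2 intensity had a lowest value of 10.14, a median of 10.22 and a highest value of 10.37 in silica rats. In air rats the lowest value was 10.01, the median 10.11 and the highest 10.25. All 8 silica values lay above the air median and 3 above every air value, so the groups overlapped. The rise was 0.12 ± 0.04 (log2, SE; 1.09-fold, adjusted p = 0.0189).

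Other subunits of complex I pointed in different directions without passing the test. Ndufv1, the subunit that binds NADH, had a log2 fold change of −0.12 (adjusted p = 0.0566), and Ndufs1, the largest core subunit, had one of −0.01 (adjusted p = 0.937). Ndufb9, an accessory subunit, had 0.10 (adjusted p = 0.0649), and Ndufa7, another accessory subunit, −0.13 (adjusted p = 0.102), the lowest value in the complex. These 4 genes were named after their values were seen. Ndufs6 was detected on 11 of 20 arrays only, and its interval was wide (−0.23 to 0.31); it too was named with its values known.

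Complex II, succinate dehydrogenase, links the chain to the tricarboxylic acid cycle, and none of its 4 members passed the test; 0 had an unadjusted p under 0.05. All 4 log2 fold changes were positive, between 0.01 and 0.08. The smallest p was that of Sdhb, the iron-sulfur subunit, with values of 11.04 to 11.31 and a median of 11.20 in silica rats, and 10.92 to 11.25 with a median of 11.14 in air rats. The groups overlapped over most of their range, and the difference was 0.08 ± 0.04 (SE, adjusted p = 0.230).

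In complex III, 1 of 5 members rose and none fell, beside 11.7% and 12.7% of all genes tested. Cyc1 (ILMN_1357206), which codes for the haem protein cytochrome c1, had a lowest log2 value of 10.09, a median of 10.17 and a highest of 10.28 in silica rats. In air rats its lowest value was 9.93, its median 10.09 and its highest 10.12. Of the silica values, 6 lay above every air value, the clearest separation among the members that rose. The rise was 0.12 ± 0.03 (SE; 1.09-fold, adjusted p = 0.0148). Uqcrfs1, the Rieske iron-sulfur protein, had a difference of 0.09 (adjusted p = 0.0851), and the core protein Uqcrc1 one of −0.03 (adjusted p = 0.696); both were named after their values were seen. Cycs, which carries electrons from complex III to IV, had values of 11.85 to 12.12 (median 11.89) in silica rats and 11.71 to 12.11 (median 11.83) in air rats. All 8 silica values exceeded the air median, but the difference of 0.06 ± 0.05 (SE) did not pass the test (adjusted p = 0.423).

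Complex IV, cytochrome c oxidase, held 3 of the 5 members that passed. Of its 10 members, 2 rose, 1 fell and 7 did not pass, a share of 3 in 10 beside 24.5% of all genes. Cox5a (ILMN_1357173), a nuclear-coded subunit with no muscle form, had a lowest value of 11.72, a median of 11.84 and a highest of 11.96 in silica rats. In air rats its lowest value was 11.53, its median 11.63 and its highest 11.92. All silica values exceeded the air median, but only 2 exceeded every air value. The rise of 0.17 ± 0.05 (SE; 1.13-fold, adjusted p = 0.00896) was the largest among the members that passed upwards.

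Cox5b (ILMN_1373904), a zinc-binding subunit, had a lowest value of 10.998, a median of 11.06 and a highest of 11.27 in silica rats. In air rats its lowest value was 10.90, its median 10.96 and its highest 11.07. Of the silica values, 4 lay above every air value, and rat 85 stood highest. The rise was 0.12 ± 0.04 (SE; 1.08-fold, adjusted p = 0.0216). Without rat 85 it was 0.09 and no longer passed (adjusted p = 0.0594). Cox4i1, the common form of a regulatory subunit, had a difference of −0.01 (adjusted p = 0.784) and was named after its value was seen, as was Cox6c below.

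Cox8b (ILMN_1374366, named COX8H in the gene table), the muscle form of a small nuclear-coded subunit, was the member that fell. In silica rats its lowest log2 value was 7.89, its median 8.48 and its highest 8.87. In air rats the lowest value was 8.54, the median 8.82 and the highest 9.12. Of the silica values, 4 lay below every air value and 1, that of rat 88, above the air median. The fall was −0.38 ± 0.10 (log2, SE; 1.30-fold lower in silica lungs, adjusted p = 0.00803). Cox6c was near the detection limit (14 of 20 arrays), with a difference of −0.20 ± 0.14 (SE, adjusted p = 0.329).

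None of the 11 members of complex V, the ATP synthase, passed in either direction; 3 had an unadjusted p under 0.05. The smallest p was that of Atp5mc1 (ATP5G1 in the table), 1 of the genes for the membrane-embedded c subunit. It had values of 11.51 to 11.97 (median 11.73) in silica rats and 11.39 to 11.79 (median 11.59) in air rats. The difference was 0.14 ± 0.05 (SE; 1.11-fold), and its adjusted p of 0.0523 lay just outside the threshold. Atp5f1a and Atp5f1b, the alpha and the catalytic beta subunit, had differences of 0.01 (adjusted p = 0.806) and −0.08 (adjusted p = 0.131). Atp5mc2, another gene for the c subunit, had −0.04 (adjusted p = 0.774), and the third, Atp5mc3, was detected on no array. Atp5f1a, Atp5f1b and Atp5mc2 were named after their values were seen.

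**Figure D2:**
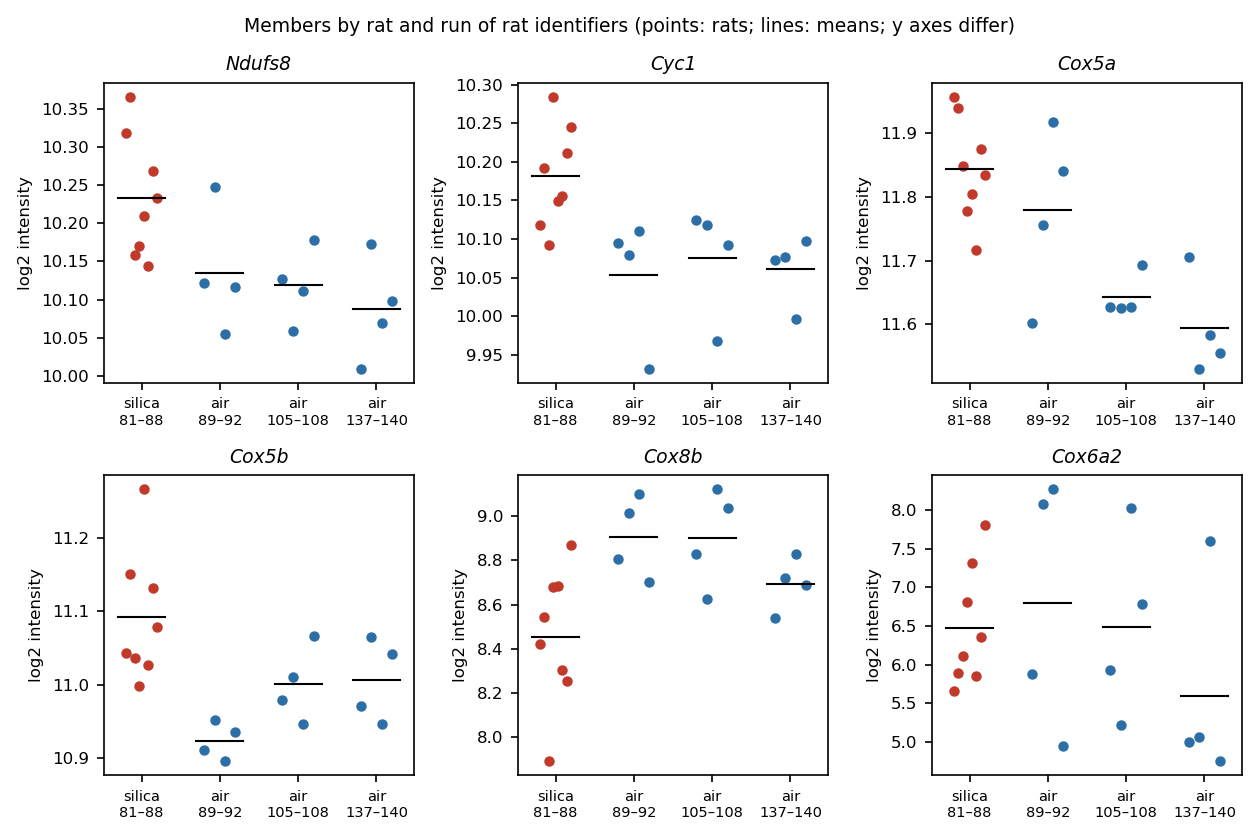
Log2 intensity (vertical axes, which differ) of the 5 members that passed and of Cox6a2, by rat; silica rats 81 to 88 stand left of the 3 runs of air rats, points are rats and lines are group means. Ndufs8 and Cyc1 are at much the same level in the 3 runs, Cox5a has a mean of 11.78 in air rats 89 to 92 and of 11.59 in rats 137 to 140, and Cox6a2 spans 3.52 log2 units over the 20 rats.

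Averaged over the members of a complex, silica and air lungs overlapped in every complex. The mean log2 intensity of complex I was 10.62 ± 0.04 in the 8 silica lungs and 10.63 ± 0.04 in the 12 air lungs (mean ± SD, here and for the other complexes). For complex V the means were 11.93 ± 0.07 in silica and 11.94 ± 0.06 in air lungs, and for complex II 11.17 ± 0.03 in silica and 11.13 ± 0.07 in air lungs. The widest spread between rats was that of complex IV, from 10.37 to 10.68 in silica and from 10.34 to 10.78 in air lungs. Without Cox6a2 the mean of the other 9 was 10.95 ± 0.07 in silica and 10.99 ± 0.05 in air lungs. For complex III the means were 11.71 ± 0.03 in silica and 11.67 ± 0.03 in air lungs. Its silica values ran from 11.68 to 11.76, all above the air mean, and its air values from 11.63 to 11.71. Silica rats 82, 84 and 88 (11.73, 11.73 and 11.76) lay above every air rat. This difference in complex means was not tested. In the plot of complex means all silica rats lie inside the range of the air rats for complex IV, and some lie outside it for the others.

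**Figure D3:**
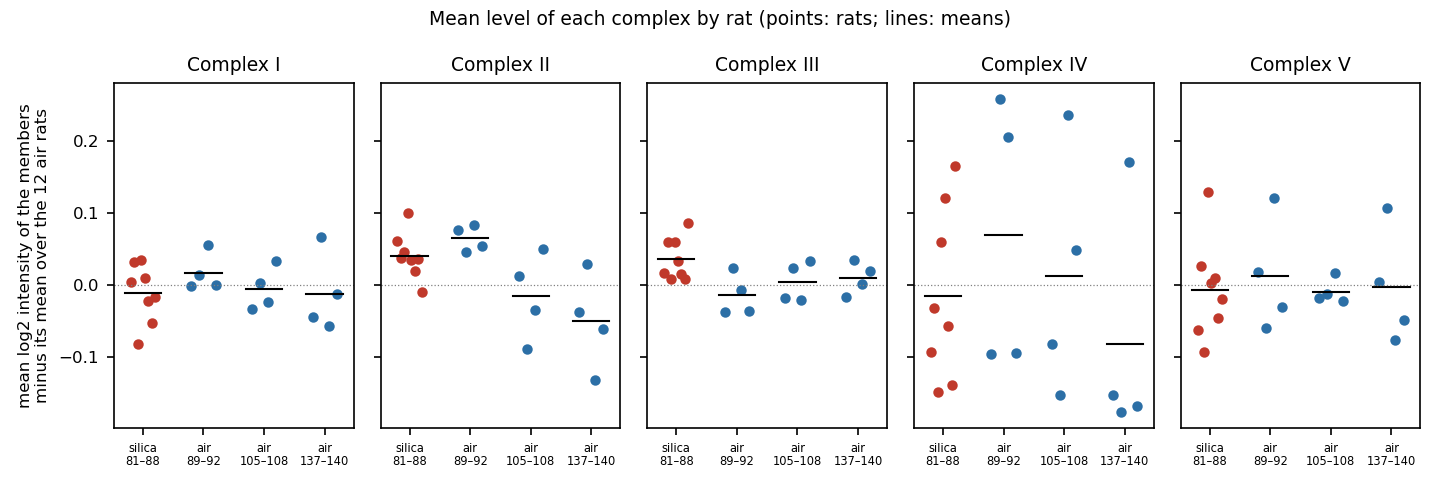
Mean log2 intensity of the members of each complex minus its mean over the 12 air rats (vertical axis), by rat, with silica rats left of the 3 runs of air rats; points are rats and lines are means. Silica and air points overlap in each complex, and complex IV, Cox6a2 included, spreads most, from −0.15 to 0.16 in silica and from −0.18 to 0.26 in air rats.

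Since the runs of identifiers might stand for batches, the silica rats were also set against each run of 4 air rats in 1 limma fit with 4 groups; the 3 comparisons share the silica arrays. Against rats 89 to 92, 1 member rose (Cox5b) and 1 fell (Cox8b), beside 4.16% and 3.18% of all genes (7.33% in either direction). Against rats 105 to 108, 1 rose (Cox5a) and 1 fell (Cox8b), beside 8.4% and 8.92% (17.3% in either direction). Against rats 137 to 140, 5 rose (Atp5mc1, Cox5a, Ndufb9, Ndufs8 and Sdha) and none fell, beside 11% and 11.1% (22.1% in either direction); 0 of the 64 members passed against every run, beside 4.94% of all genes. None of the 5 members that passed against all 12 air rats passed against each run.

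The rise of Cox5a passed against 2 of the 3 runs. It was 0.07 against rats 89 to 92 (adjusted p = 0.565), 0.20 against rats 105 to 108 (adjusted p = 0.0135) and 0.25 against rats 137 to 140 (adjusted p = 0.00236). The rise of Cyc1 was alike in size against the 3 runs (0.13, 0.11 and 0.12) and passed against none alone (adjusted p = 0.118, 0.137 and 0.0752). Cox8b was −0.45, −0.45 and −0.24 in the same order of runs, and the last did not pass (adjusted p = 0.211). Sdha, the flavoprotein of complex II, had opposite signs: −0.12 against rats 89 to 92 (adjusted p = 0.236) and 0.19 against rats 137 to 140 (adjusted p = 0.0184).

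A moderated F test among the 3 runs of air rats called 0 of 64 members, beside 0.439% of all genes; 6 members had an unadjusted p under 0.05. The member nearest to the threshold was Sdha, with an adjusted p of 0.0593. Its run means were 10.35 in rats 89 to 92, 10.21 in rats 105 to 108 and 10.05 in rats 137 to 140, against 10.23 in silica rats. All 4 values of rats 89 to 92 (10.32 to 10.40) lay above all 4 of rats 137 to 140 (9.94 to 10.14). What the runs stand for is unknown here, so their part in these differences was not tested.

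The muscle forms were compared with the common forms on the same array. A difference between probes has no meaning as a level, so only its change between groups was tested, by an exact permutation test over all 125970 ways to choose 8 of 20 arrays (2-sided). Of the pairs planned, 2 had both genes detected. In the others at least 1 gene had no row under its symbol or was not detected. Cox8b minus Cox8a averaged −4.06 ± 0.34 over the 8 silica lungs and −3.70 ± 0.23 over the 12 air lungs (mean ± SD), a change of −0.36 (exact permutation p = 0.00770, 0.0154 after adjustment over the 2 pairs). Against rats 89 to 92, 105 to 108 and 137 to 140 alone the change was −0.43, −0.48 and −0.17, and none of these passed (exact permutation, adjusted p = 0.0606, 0.0848 and 0.410). All 8 silica values were below the air median and 3 below every air value. Cox8a itself had values of 12.39 to 12.66 (median 12.53) in silica rats and 12.32 to 12.71 (median 12.54) in air rats, a difference of −0.02 ± 0.05 (SE, adjusted p = 0.819).

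Cox6a2 minus Cox6a1 changed by 0.26 between groups, which did not pass (exact permutation p = 0.616, also 0.616 adjusted). Cox6a1 had values of 13.37 to 13.65 (median 13.54) in silica rats and 13.42 to 13.74 (median 13.65) in air rats, a difference of −0.08 ± 0.04 (SE, adjusted p = 0.207). Cox6a2 was detected on 8 of 8 silica and 7 of 12 air arrays. Its values ran from 5.66 to 7.80 (median 6.24) in silica rats and from 4.75 to 8.27 (median 5.90) in air rats, the widest range of any member, and its difference of 0.18 ± 0.47 (SE) did not pass (adjusted p = 0.814). The direction of that difference is not settled: it was −0.021 in the authors' deposited log2 values and −0.068 with limma's default background inference.

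The level of Cox6a2 followed that of cardiac muscle markers from rat to rat. Pulmonary veins of rats are known to have cardiac muscle in their walls. Of 20 rows on the cardiac list, 11 passed the detection filter, among them Myh6, Myl7 and Tnnt2. Actc1, Ckmt2, Myl2, Myh7 and Nppa were detected on no array. The mean log2 intensity of the 11 ran from 4.95 to 8.26 (median 6.21) in silica rats and from 5.03 to 8.78 (median 6.12) in air rats, and their summed intensity ran from 361 to 6043 in silica rats and from 385 to 8575 in air rats. None of the 11 passed between silica and air (limma; 1 had an unadjusted p under 0.05), with a median log2 fold change of −0.37. Of 12 rows on the skeletal muscle list, 5 were tested, Mylk2 rose, Myoz1 fell, and Myh2, Myh4, Actn3, Myl11 and Pvalb were detected on no array.

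With the cardiac mean added to the model as a covariate, after these values had been seen, the slope of Cox6a2 was 0.82 ± 0.04 log2 units per log2 unit (SE, adjusted p = 7.58e-14). It was the only member of 64 with a slope that passed, beside 0.296% of all genes, or 0.191% with the markers themselves left out. Across the 20 rats Pearson's r between Cox6a2 and the cardiac mean was 0.960 and Spearman's rho 0.931 (permutation p = 1e-05 each, the smallest that 100000 permutations can give; 2.7e-05 and 4e-05 adjusted over 8 relations). It held within groups, with r = 0.968 in the 8 silica rats (exact permutation p = 0.00012, adjusted 0.00025) and r = 0.997 in the 12 air rats (permutation p = 1e-05, adjusted 2.7e-05). Without the 2 rats farthest from the median cardiac level r was 0.944.

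In the model with the covariate, the fitted silica difference of Cox6a2 was 0.47 ± 0.10 (SE, limma, adjusted p = 0.00153), where 25.3% of all genes passed. In 24 of 25 alternatives, 20 of them with 1 array left out, this difference kept its direction and passed. Under the default control inference of limma it was 0.04 and did not pass (adjusted p = 0.388). Cox6a2 was not above background on 5 of the 12 air arrays, and the part of background handling in the size was not tested. Those 5 arrays had the lowest Cox6a2 values of all 20, with cardiac means from 5.03 to 5.46 and Cox6a2 values from 4.75 to 5.22. Silica rats 81 and 86 had the lowest cardiac means of all (4.95 and 4.97), and Cox6a2 was detected in both (5.66 and 5.85). Silica rats 83, 84 and 85 (cardiac means 5.97, 6.44 and 7.52) had Cox6a2 values of 6.11, 6.82 and 7.31. Air rats 105, 89 and 108 (cardiac means 6.10, 6.14 and 7.44) had lower values of 5.93, 5.88 and 6.78. Rats were set side by side after their values were seen, and their cardiac means were not equal (6.44 in rat 84 and 6.14 in rat 89). Silica rat 82 (5.49) had 5.90, and air rat 106 (5.46), not above background, had 5.22. Silica rat 87 (6.62) had 6.36, between air rats 89 and 108. Silica rat 88 (8.26) had 7.80, and the air rats next to it, 139 (8.05) and 107 (8.35), had 7.597 and 8.02. The highest cardiac means were those of air rats 90 and 91 (8.70 and 8.78), with Cox6a2 values of 8.07 and 8.27.

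Cox8b was set against the same markers, and no test compared its relation with that of Cox6a2. Its slope on the cardiac mean was 0.12 ± 0.03 (SE) and did not pass (limma, adjusted p = 0.0737). It passed with default background inference (0.29, adjusted p = 0.0148) and in the authors' deposited log2 values (0.18, adjusted p = 0.0453). There the cardiac mean was recomputed from differently processed values, so the sizes of these slopes cannot be set against 0.12. It also passed without silica rat 83 (0.12, adjusted p = 0.00401) and without silica rat 87 (0.12, adjusted p = 0.0477). Over the 20 rats r was 0.621 and rho 0.665 (permutation p = 0.0028 and 0.002, adjusted 0.0038 and 0.0027). Within the 12 air rats r was 0.892 (permutation p = 0.00024, adjusted 0.00038), and within the 8 silica rats it was 0.556 and did not pass (exact permutation p = 0.15, adjusted 0.15). Without the 2 rats farthest from the median cardiac level r was 0.511 (permutation p = 0.028, adjusted 0.032). With the covariate the silica difference of Cox8b was −0.34 ± 0.08 (SE, adjusted p = 0.00249), close to the −0.38 without it. Cox8b is also known to be made in brown fat. Of 9 rows on the fat list 3 were tested, Cidea and Cfd rose and none fell, and Ucp1, Adipoq, Plin1, Lep, Retn and Elovl3 were detected on no array.

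**Figure D4:**
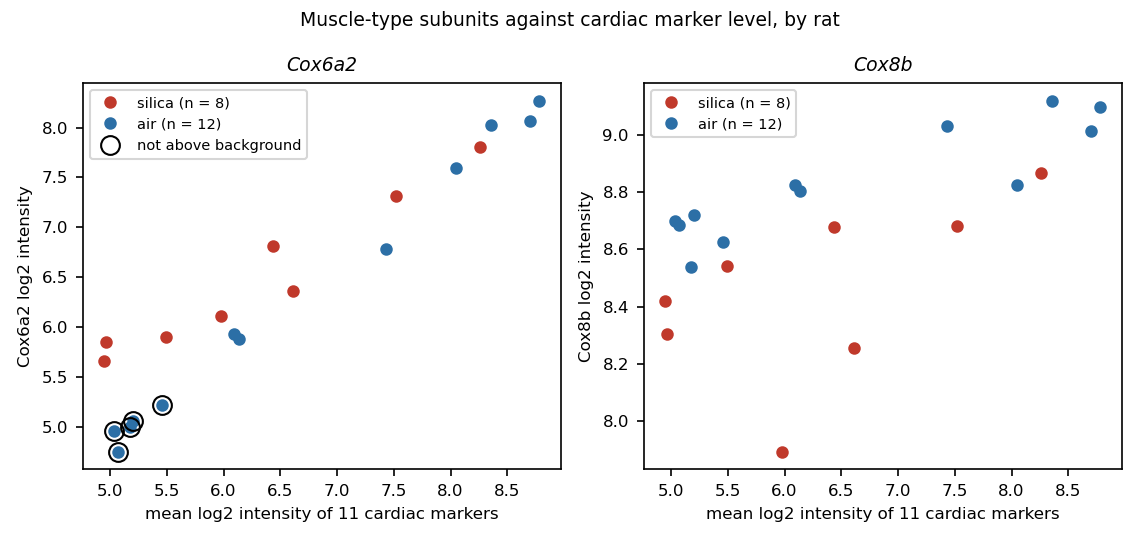
Log2 intensity of Cox6a2 (left) and Cox8b (right) against the mean log2 intensity of 11 cardiac markers (horizontal axes), 1 point per rat, silica and air rats in different colours; rings mark the 5 arrays where Cox6a2 was not above background. Cox6a2 rises with the marker level in both groups, and Cox8b lies lower in silica rats at most marker levels.

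Other genes of mitochondria were described by lists of their roles, and a few genes beyond the rule for naming (Pdhx, Suclg1, Clpp and Gpx1) were named after their values were seen. Of 185 genes tested on 7 lists, with the members left out, 23 rose, beside 11.7% of all genes, and 5 fell, beside 12.7%; 157 did not pass. Their median log2 fold change was 0.03, beside −0.02 over all genes tested. The list medians lay within 0.01 of 0 for assembly factors, exchange and regulators, and were 0.03 for the tricarboxylic acid cycle and 0.05 each for the mitochondrial ribosome, import, and superoxide and peroxide enzymes.

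On the list of assembly factors, which build the complexes, 2 of 32 rose and none fell (Ndufaf1, Dmac2 and Dmac2l were put on this list too). Coa5, needed for complex IV, had a rise of 0.23 ± 0.08 (SE, adjusted p = 0.0439) and Atpaf1, which helps to assemble the catalytic part of complex V, one of 0.22 ± 0.08 (SE, adjusted p = 0.0473). Atpaf1 was detected on 11 of 20 arrays, and leaving out 1 array ended its call in 15 of 20 cases and that of Coa5 in 12 of 20. The difference of Atpaf1 was 0.021 (adjusted p = 0.0565) with default background inference and 0.061 (adjusted p = 0.0610) in the authors' deposited log2 values. In the exchange list 2 of 13 rose and none fell. Slc25a5 had values of 12.47 to 12.73 (median 12.59) in silica rats and 12.25 to 12.55 (median 12.40) in air rats, a rise of 0.21 ± 0.04 (SE, adjusted p = 0.000942). Slc25a6 rose by 0.18 ± 0.04 (SE, adjusted p = 0.00143). Both are carriers that exchange ADP for ATP across the inner membrane.

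In the tricarboxylic acid cycle and the entry of pyruvate, 4 of 23 rose and 1 fell. Pc, pyruvate carboxylase, which replenishes the cycle, had values of 7.48 to 7.74 (median 7.603) in silica rats and 7.21 to 7.42 (median 7.33) in air rats. All 8 silica values lay above all air values, and the rise was 0.30 ± 0.05 (SE; 1.23-fold, adjusted p = 5.74e-05). Cs, citrate synthase, which makes the first compound of the cycle, ran from 7.17 to 7.46 (median 7.32) in silica rats and from 6.68 to 7.17 (median 6.96) in air rats, a rise of 0.35 ± 0.06 (SE; 1.28-fold, adjusted p = 0.000196). The other 2 that rose were Pdhx, a component of the pyruvate dehydrogenase complex, and Suclg1, a subunit of succinyl-CoA ligase. Pdk2, a kinase that inhibits pyruvate dehydrogenase, fell by 0.14 (adjusted p = 0.0407), a call that ended without 1 array in 14 of 20 cases.

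Of 23 regulators of mitochondrial genes, 3 rose and 2 fell. Myc, a growth-related transcription factor, ran from 9.05 to 9.36 (median 9.18) in silica rats and from 8.48 to 9.04 (median 8.79) in air rats, with no overlap, a rise of 0.40 ± 0.06 (SE; 1.32-fold, adjusted p = 1.11e-05). Pprc1, a coactivator of the PGC-1 family, rose by 0.21 ± 0.05 (SE, adjusted p = 0.00391), and Clpp, a matrix protease, was the third. Polrmt, the RNA polymerase that transcribes mitochondrial DNA, had a change of −0.19 ± 0.04 (SE, adjusted p = 0.00355). Nrf1, the factor whose site was counted above, had −0.25 ± 0.09 (SE, adjusted p = 0.0376), but it was detected on 8 of 20 arrays only, and its call ended without 1 array in 12 of 20 cases.

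In the mitochondrial ribosome, which translates the subunits coded by mitochondrial DNA, 5 of 61 genes rose and 2 fell. Mrpl50 (0.26 ± 0.06, SE) and Mrps34 (0.21 ± 0.05, SE) had the smallest p among those that rose (adjusted p = 0.00339 and 0.00463). Mrps5 had −0.16 ± 0.04 (SE, adjusted p = 0.00907) and Mrpl16 −0.16 ± 0.05 (SE, adjusted p = 0.0291). The call of Mrpl16 ended with median scaling (adjusted p = 0.0504), without the detection filter (0.0617), without the 3 brightest arrays (0.125) and without silica rat 82, 83 or 86 (0.0512, 0.0560 and 0.0550), and its difference was −0.025 against air rats 89 to 92. In protein import 4 of 27 rose and none fell, with Timm10, a chaperone of the space between the membranes, at 0.13 ± 0.04 (SE, adjusted p = 0.0190) and Tomm70, a receptor of the outer membrane, at 0.13 ± 0.04 (SE, adjusted p = 0.0209). Neither passed with median scaling (adjusted p = 0.0645 for Timm10 and 0.0517 for Tomm70), against air rats 89 to 92 (0.0796 and 0.214) or against rats 137 to 140 (0.316 and 0.309), and Tomm70 did not pass without silica rat 87 (0.0501).

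Enzymes that remove superoxide and peroxide held the largest rise on any of these lists: 3 of 9 rose and none fell. Sod2, the superoxide dismutase of the matrix, ran from 10.65 to 11.15 (median 10.87) in silica rats and from 9.53 to 10.29 (median 9.71) in air rats. The groups did not overlap, and the rise was 1.09 ± 0.08 (SE; 2.13-fold, adjusted p = 1.61e-09). Prdx5, a peroxidase, had values of 12.68 to 13.01 (median 12.92) in silica rats and 12.22 to 12.96 (median 12.46) in air rats, a rise of 0.38 ± 0.07 (SE, adjusted p = 0.000214). The third was Gpx1.

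**Figure D5:**
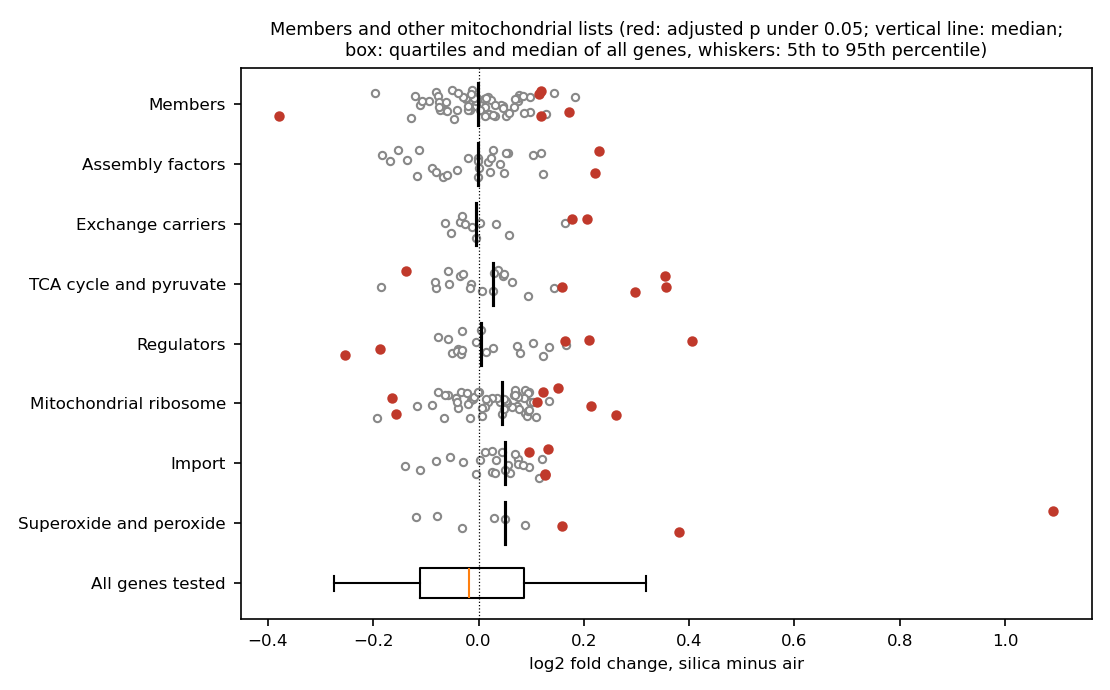
Log2 fold change, silica minus air (horizontal axis), of the 64 members and of the genes on 7 other mitochondrial lists without the members; red points passed an adjusted p under 0.05, vertical lines are medians, and the box shows all 10488 genes tested. Cox8b, at −0.38, is the member furthest to the left, and Sod2, at 1.09, is the point furthest to the right.

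Markers of lung cell types differed between the groups beside these results. For these lists, and for the muscle and fat lists above, the shares over all genes tested were 11.7% rising and 12.7% falling. Of the neutrophil markers 6 of 7 rose, with a summed intensity of 4658 to 6445 in silica and 1931 to 2874 in air lungs, and Mpo and S100a9 were detected on no array. Of the macrophage markers 8 of 11 rose (25349 to 29986 in silica and 11862 to 24193 in air lungs; Marco was detected on no array), and of alveolar type 2 markers 5 of 10 rose (80928 to 88527 in silica and 71636 to 85311 in air lungs). Of the endothelial markers 6 of 8 fell (26293 to 30093 in silica and 29717 to 35449 in air lungs). Of the smooth muscle and pericyte markers 4 of 7 fell (5789 to 7702 in silica and 6762 to 9274 in air lungs; Rgs5 was detected on no array). Of 7 alveolar type 1 markers 1 rose and 2 fell (36925 to 40643 in silica and 39197 to 43535 in air lungs), and of 8 ciliated cell markers 1 fell (4562 to 5915 in silica and 5165 to 7021 in air lungs; Dnah9, Spag6 and Rsph1 were detected on no array). The median log2 fold change of these lists was 0.42 for neutrophils, 0.65 for macrophages, 0.19 for alveolar type 2 cells, −0.07 for alveolar type 1 cells, −0.24 for endothelial cells and −0.28 for smooth muscle and pericytes. For ciliated cells the median was 0.11, opposite in sign to the 1 gene that passed. The part of these cell types in the results for the members was not tested.

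All 5 rows that missed the detection filter were detected on no array: Atp5mc3, Cox8c, the row named COX6B, the row named COX6C1 and a second row for Ndufb4. A further 19 rows carry a current RefSeq symbol of this kind under an older or placeholder name, such as the subunits Cox6b1 and Atp5mk, several assembly factors and pseudogenes. Of these, 16 were tested and 0 passed with limma (adjusted p under 0.05; 3 had an unadjusted p under 0.05), so counting them would leave the number of members that rose or fell as it was. No row carried the symbol Cox4i2, Cox7a1, Cox7a2 or Ndufa4, so these genes were not analysed here. Arrays had a median raw intensity of 67.01 to 98.6 and 9434 to 10840 detected genes, with a median of 40 to 43 beads per gene. The 3 arrays of highest median intensity (silica rat 86 and air rats 139 and 106) had the fewest detected genes; without them 4 members rose and 2 fell, the second being Ndufa7.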

How the data were processed

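Lung RNA of 8 silica rats and 12 air rats was measured on 1 Illumina array each. The authors deposited gene-level intensities with detection p-values and, in another table, normalized log2 values. BeadStudio, lumi and limma are named in the submitters' processing notes; which step used which is not given there. The deposited log2 values served as an alternative. Intensities were background-corrected (normexp, offset 16, negative controls inferred from detection p-values without the 618 rows that average several probes), quantile-normalized and put on the log2 scale. The default inference of limma keeps those rows. Its background SD was 89.7 to 262 per array, against 7.48 to 14.3 without them. The 10488 of 21792 genes whose detection p lay under 0.01 on 8 or more arrays entered the test, with limma 3.58.1 in R 4.3.3 (lmFit, eBayes with intensity trend, Benjamini-Hochberg adjustment over all genes tested). The fit was tested on simulated data with noise independent between genes and without runs of controls. The changes added there were larger than that of any member, so changes as small as those of the members were not covered. Names were updated through RefSeq; 5471 of 21792 kept the table's name. No test compared the levels of different probes as such. The difference within an isoform pair was tested only for its change between groups. Complex means, the cardiac mean and marker sums pool several probes. Members and lists were chosen with earlier results of these data known. Named were, in each complex, up to 4 rising and 4 falling members of smallest p among those that passed, or the member of smallest p; Cycs; the largest rise and fall; both arms of each isoform pair; and up to 2 rising and 2 falling genes of each other list. Alternatives were other background corrections, scalings, filters, variance models and array weights, a replicate block, each run of air rats, and each array left out. The cardiac covariate, the arrays of highest intensity left out, older names counted and samples 1 to 8 without the block were added after seeing the data. The number of arrays limits the precision.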

Additional observations from a re-analysis of the deposited data

Results flagged for a closer look

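In the silica group 2 members had 1 rat far from the others, by the gap to the nearest rat divided by the range of the group. For Cycs this ratio was 0.631, with rat 84 highest at 12.12 and the nearest rat at 11.95. For Ndufb9 it was 0.577, with rat 86 lowest at 12.43 and the nearest rat at 12.54. The silica values of 64 members were examined, and chance alone marks about 1 in 20 groups.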

How the results depend on the processing

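Across 37 settings, 1048 of 1203 recomputed values of 36 tested results kept their direction and side of the threshold, 540 of 642 recomputed counts (21 results) stayed within 1.5 times the count reported, and 179 of 180 medians (5 results) moved by less than 1 SD between rats; for those that did not, the cause was not tested unless the smaller number of air rats is named. The 4 rising members were 1 with median scaling (Cox5a), 7 in the authors' deposited values (with Atp5mc1, Ndufb9 and Uqcrfs1) and 1 against air rats 89 to 92 or 105 to 108 alone. Over all genes 1236 rose with median scaling and 1242 in the authors' values, beside 1231 in the main setting. Among the 8739 genes detected on all arrays 1111 rose. The 1 falling member, Cox8b, became 2 in the authors' values (with Ndufv1), with array weights (with Atp5pf) and without the 3 brightest arrays (with Ndufa7), and 0 against rats 137 to 140 alone. Complex I had 0 rising members with median scaling, against rats 89 to 92 and against rats 105 to 108, 2 in the authors' values, with array weights and against rats 137 to 140, and 1 falling in the authors' values and without the brightest arrays. Complex II had 1 rising against rats 137 to 140. Complex III had 0 rising with median scaling and against each run, and 2 in the authors' values; its median was 0.058 with median scaling. Complex IV had 1 rising with median scaling and against each run, and 0 falling against rats 137 to 140. Complex V had 1 rising in the authors' values, with genes detected on all arrays, with array weights, against rats 137 to 140 and with the cardiac covariate, and 1 falling with array weights. Of the other mitochondrial lists 6 genes rose against rats 89 to 92 alone; the 5 falling were 3 with median scaling and against rats 105 to 108, 2 without the detection filter and without the brightest arrays, and 0 against rats 89 to 92.

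Replicate numbers did not pair the rats: same-numbered silica and air rats correlated from −0.23 to 0.19, 1 of 8 pairs was over 0.1, and 0 rats correlated best with their own number. With the replicate block, on samples 1 to 8 of each group, 0 members rose and 0 fell in any complex, and 13 genes of the other lists rose and 1 fell; over all genes 828 rose and 711 fell, against 1231 and 1334 without the block on all arrays. The same samples without the block gave 2 rising members, 0 in complex I and 1 in complex IV, with 14 rising and 2 falling on the other lists.

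Leaving out 1 array at a time gave 3 to 6 rising members and 1 to 2 falling (2 without rat 81, 84, 86, 91 or 139). In complex I 1 to 2 rose (2 without rat 86, 89 or 138) and 0 to 1 fell (1 without rat 81, 91 or 139); in complex IV 1 to 2 rose (1 without rat 85); in complex V 0 to 1 rose (1 without rat 83, 89 or 91) and 0 to 1 fell (1 without rat 84 or 86). On the other lists 18 to 26 rose and 3 to 6 fell.

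Against rats 89 to 92 the 1 rising member became 0 with median scaling, no detection filter or no intensity trend, and the 1 falling became 0 without filter, without trend or with array weights; leaving out 1 array gave 0 to 1 for each (0 rising without rat 89, 90, 91 or 92; 0 falling without rat 89, 90, 91, 140 or 105). Against rats 105 to 108, 6 rose with array weights, and leaving out 1 array gave 1 to 2 rising (2 without rat 106) and 0 to 1 falling (0 without rat 107 or 108). Against rats 137 to 140 the 5 rising were 1 with median scaling and 3 without filter or trend, and leaving out 1 array gave 1 to 6 (3 without rat 137, 1 without rat 139, 2 without rat 140). The Cox8b to Cox8a change was −0.43 (adjusted p = 0.0606), −0.48 (adjusted p = 0.0848) and −0.17 (adjusted p = 0.410) against rats 89 to 92, 105 to 108 and 137 to 140 alone, by exact permutation over fewer rats, and −0.41 to −0.26 without 1 array. Cox6a2 to Cox6a1 was −0.22 against rats 89 to 92. Cox6a2 itself was −0.068 with default background inference, −0.021 in the authors' values, −0.32 and −0.010 against rats 89 to 92 and 105 to 108, and −0.0060 to 0.36 without 1 array, the lowest without silica rat 88. Cycs was −0.041 against rats 89 to 92, and Cox8a 0.029 against rats 105 to 108.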
